A study of Mus musculus with 12 samples.

Results

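The complement and coagulation proteins examined here are 42 secreted plasma proteins, 21 of complement and 21 of coagulation, anticoagulation and fibrinolysis. Their genes were taken by symbol from a table of 53599 genes, and all 42 symbols were found. After the filter on low counts, 41 of the 42 were among the 16210 genes tested; Cfd was not. RNA had been sequenced from cells sorted out of mouse livers, 3 libraries in each of 4 groups, to follow hepatocytes as they take on a biliary identity. All mice carried the genotype label WT, received AAV8-TBG-Cre, a virus that drives Cre recombinase from a hepatocyte promoter, and ate 0.1% DDC, a compound that injures bile ducts, for 8 weeks. The early group was EGFP+ Cd24- Epcam-, the intermediate group EGFP+ Cd24+ Epcam-, and the full group EGFP+ Cd24+ Epcam+. EGFP marks cells that were hepatocytes when the virus was given, and Cd24 and Epcam are surface proteins of biliary cells. The BEC group (biliary epithelial cells) was EGFP- Epcam+, so its cells did not carry the hepatocyte label. The summed level of 7 biliary markers, Epcam and Sox9 among them, ran from 32.8 to 52.9 CPM in early libraries, 322 to 389 in intermediate, 979 to 1251 in full and 2762 to 2934 in BEC. Epcam encodes a protein of the sort, so its part of these sums was set by the gate. Sox9 made up most of the sum in early and intermediate (43.4 ± 10.4 and 311 ± 36.6 CPM), and BEC against full gave 0.04 for it (edgeR adjusted p 0.924). Every group had been exposed to DDC, and none came from uninjured liver. Age, the reporter allele and whether a library pooled animals are not given in the sources used here.

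Complement is a cascade of plasma proteases that coats targets with C3 fragments and can end in a membrane pore. It is started by antibody through C1, by sugar-binding lectins, or by the alternative pathway that amplifies on surfaces. Coagulation is a second cascade, in which serine proteases, several of which need vitamin K for their maturation, turn prothrombin into thrombin, and thrombin turns fibrinogen into fibrin. Most of these proteins are made by hepatocytes and released into blood, while factor VIII is made mainly by endothelial cells and adipsin (Cfd) mainly by fat cells.

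The upstream sequences of a few members are shown because the data bear on genes that fell together and on those that did not. RefSeq's promoter table (GRCm38.p6, an earlier build than the GRCm39 of the counts) held 33 of the 42 members; Masp1, C2, C4b, Cfb, Cfi, Serping1, Proc, Kng1 and Plg were not matched. The 250 bases before the start site were searched on both strands for 4 motifs: GTTAAT (a half-site of HNF1), CAAAGT (a half-site of HNF4), TTGCNNAA (C/EBP) and TTCNNNGAA (STAT3). Fga (chr3:83025903-83026152, plus strand) and C8b (chr4:104766067-104766316, plus strand) belong to the genes lost early, as defined below, while C3 (chr17:57228137-57228386, minus strand) and F8 (chrX:75380042-75380291, minus strand) kept more of their level. The sequences were chosen after the matches were seen. Capitals mark the matches.
Fga: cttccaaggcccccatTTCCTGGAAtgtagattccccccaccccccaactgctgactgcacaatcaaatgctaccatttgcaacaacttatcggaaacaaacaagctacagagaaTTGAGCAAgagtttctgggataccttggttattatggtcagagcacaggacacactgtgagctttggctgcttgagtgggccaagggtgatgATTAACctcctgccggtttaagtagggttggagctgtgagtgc
C8b: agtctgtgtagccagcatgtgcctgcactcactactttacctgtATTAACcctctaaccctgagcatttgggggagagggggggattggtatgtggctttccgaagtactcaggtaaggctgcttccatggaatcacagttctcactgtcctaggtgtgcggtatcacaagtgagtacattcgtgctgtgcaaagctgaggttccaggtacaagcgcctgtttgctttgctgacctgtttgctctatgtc
C3: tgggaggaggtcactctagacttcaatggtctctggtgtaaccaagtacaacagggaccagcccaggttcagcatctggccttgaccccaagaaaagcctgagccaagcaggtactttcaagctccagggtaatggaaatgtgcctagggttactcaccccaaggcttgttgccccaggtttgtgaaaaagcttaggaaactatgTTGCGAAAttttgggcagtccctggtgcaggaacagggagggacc
F8: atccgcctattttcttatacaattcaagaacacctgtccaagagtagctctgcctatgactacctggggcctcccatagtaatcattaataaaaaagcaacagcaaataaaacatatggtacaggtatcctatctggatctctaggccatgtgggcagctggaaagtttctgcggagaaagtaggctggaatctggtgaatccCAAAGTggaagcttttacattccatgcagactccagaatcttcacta
In Fga the capitals are, from left to right, matches to the STAT3, C/EBP and HNF1 letters, at positions -234 to -226, -135 to -128 and -43 to -38 from the start site. C8b has the HNF1 letters at -206 to -201, C3 the C/EBP letters at -45 to -38 and F8 the HNF4 letters at -47 to -42. The 4 motifs do not overlap in these windows. The HNF1 letters were found for 9 of the 33 members, against 6.43% of all 32851 promoters of this length. These members were C1ra, C4bp, C8a, C8b, F13b, Fga, Fgb, Hc and Vtn. For all 4 motifs a member counted if any of its promoters matched, and 2 second promoters were among them. Shares of all are per promoter, so the 2 measures are not fully alike. The HNF4 letters were in 6 of 33, against 12.6% of all. The C/EBP letters were in 8 of 33 (9.56% of all) and the STAT3 letters in 6 (7.02%). These counts are descriptions of letters in short windows.

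Libraries held 15112893 to 19731887 counts, and the level that 3 counts represent ranged from 0.128 to 0.273 CPM (counts scaled to library size after TMM normalization, the scale used for all levels below). In early libraries 4.53% to 5.55% of all counts came from the 42 members, in intermediate libraries 2.58% to 2.92%, in full libraries 1.45% to 1.54% and in BEC libraries 1.15% to 1.23%. The labels do not say whether replicates came from separate mice, so p-values measure the spread between these libraries, which may be technical. Within groups the members tended to share their highest library: replicate 1 was the highest early library for 25 of the 41 tested members. Replicate 3 was the highest for 30 of 41 in intermediate, for 28 in full and for 27 in BEC. The same count was not made over all genes, so this pattern may not be particular to the members.

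Between early and intermediate, the step marked by Cd24, 39 of the 41 tested members fell and 0 rose, against 25.7% of all genes tested that were lower (edgeR's quasi-likelihood test, Benjamini-Hochberg adjusted p under 0.05 over all genes). In either direction, 54.4% of all genes were called at this step. Pros1 (-0.25, edgeR adjusted p 0.0676) and F8 (-0.50, edgeR adjusted p 0.134) were not called. Between intermediate and full, the step marked by Epcam, 39 of 41 fell again, against 19.8% of all genes lower and 40.7% called in either direction. Between full and BEC, 31 of 41 were lower in BEC, against 10.6% of all genes lower and 21.3% called in either direction. From early to full 39 fell (32.1% of all genes lower, 71.2% called in either direction), and from early to BEC 40 fell (33.0% lower, 73.1% in either direction). None of the 41 was called higher in any of these 5 comparisons, against 28.7%, 20.8%, 10.7%, 39.1% and 40.0% of all genes in the order given. When scaled by total counts, however, C2 and Pros1 were called higher at the first step, Masp1 at the second and from early to full, and F8 from early to BEC. The members' median log2 fold change was -1.86 at the first step, -2.18 at the second and -1.06 from full to BEC, where the medians of all genes were 0.06, 0.01 and 0.00. In each of these comparisons bulk RNA cannot tell fewer cells that make a transcript from less transcript per cell. Of 7 stellate cell and fibroblast markers, 1 was lower at the first step, 1 at the second and 1 from full to BEC, 6 from early to full and 5 from early to BEC (median log2 fold change -1.24), and 0 were higher. Their summed level was 95.2 to 272 CPM in early libraries, 57.6 to 163 in intermediate, 44.8 to 74.0 in full and 49.1 to 86.5 in BEC. Their part in the members' values was not tested.

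Several ways of losing expression were separated by comparing each later group with early. A member was called lost early if it was at least 4-fold lower already in intermediate (log2 fold change of -2 or less, and called), and lost late if it reached that limit only in full. The class lost early held 18 of 41 members, against 4.00% of all genes tested. These were Mbl1, Mbl2, Masp2, Hc, C6, C8a, C8b, C8g, C4bp, F2, F10, F11, Klkb1, Kng1, Fga, Fgg, Serpinc1 and Plg. Lost late held 16 (5.45% of all genes): C1ra, C1s1, C4b, C9, Cfi, Vtn, F7, F9, Proc, F12, F5, Fgb, F13b, Serpind1, Serpinf2 and Cpb2. Only in BEC did Masp1 and Serping1 pass the limit (2 members, 2.15% of all genes). C2, C3, Cfb and Pros1 were reduced in BEC by at least 2-fold but less than 4-fold (4 members, 8.59% of all genes). F8 alone was kept (1 member, 53.0% of all genes), and 0 members were gained (26.8% of all genes). Members lie close to the limit on both sides. Plg (-2.04), Klkb1 (-2.04), C4bp (-2.05), F2 (-2.06) and Fga (-2.06) were just inside, C9 (-1.997), Cpb2 (-1.89), C1ra (-1.86) and F5 (-1.86) just outside. Scaling moved the boundary too. When libraries were scaled by total counts only, without TMM, the median over all genes moved from 0.06 to 0.72 at the first step (log2) and the members' median to -1.20. The classes then held 7 members lost early, 22 late, 4 in BEC only, 3 reduced and 5 kept (C2, C3, Cfb, Pros1 and F8). Each tested member's share of early in BEC was 1.82 to 1.83 times higher on that scale than given below, with a median of 2.81%.

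**Figure D1:**
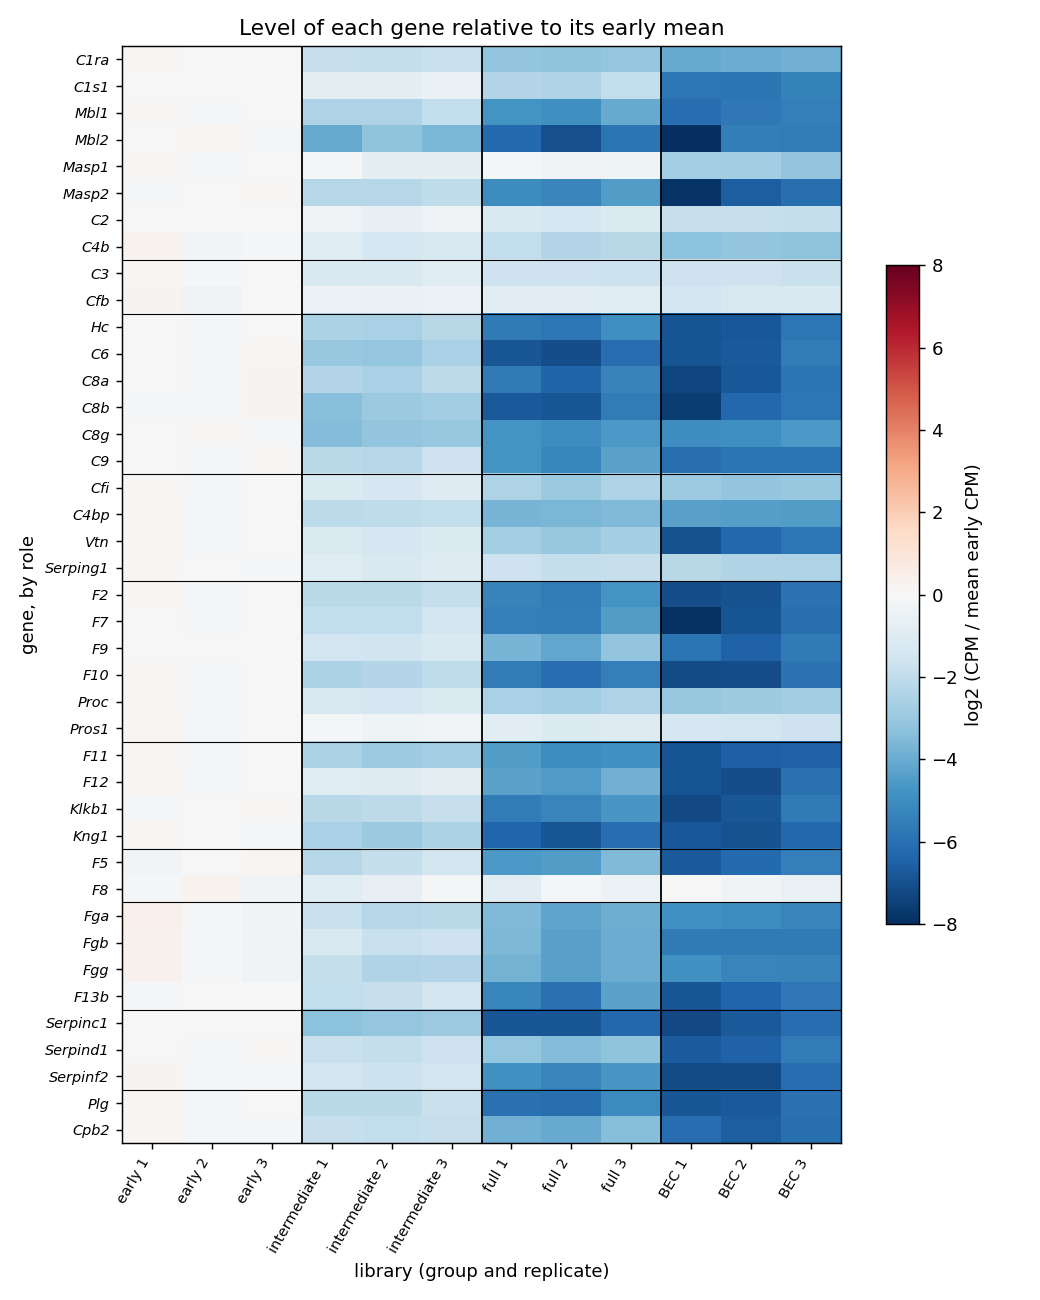
Heat map of the 41 tested members (rows, grouped by role) in the 12 libraries (columns), with colour for the log2 of CPM over the mean early CPM. Blue deepens from intermediate to BEC in most rows, while Masp1, C2, Cfb, Pros1 and F8 stay pale up to full.

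**Figure D2:**
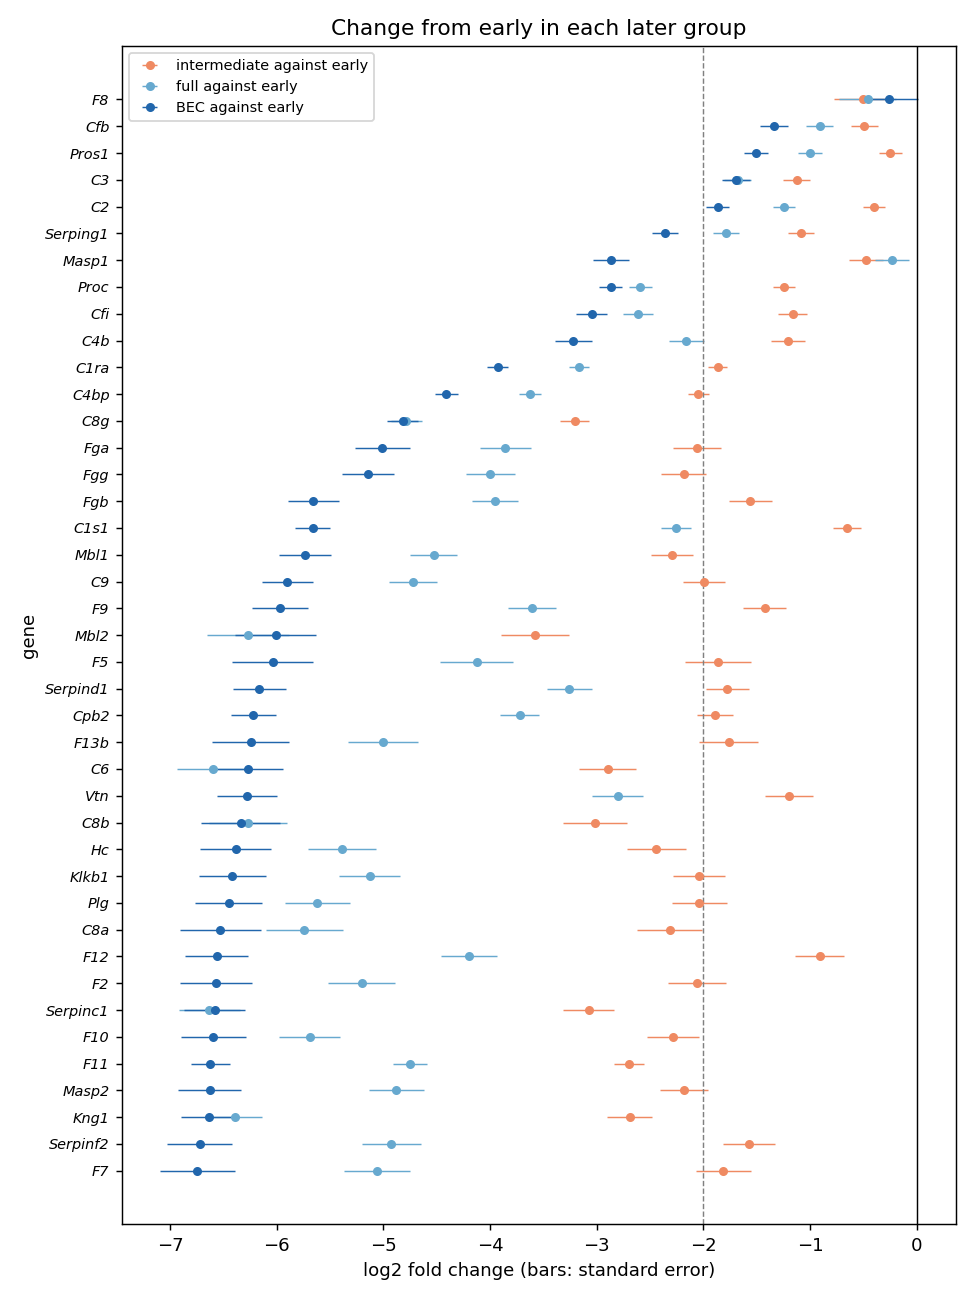
Log2 fold change of each tested member against early (x axis, bars show the standard error) in intermediate, full and BEC, with members ordered by the BEC value. The dashed line marks -2, the limit that separates early from late loss.

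The proteins that start complement were lost at different times. C1ra and C1s1 encode the C1r and C1s proteases, Mbl1 and Mbl2 the mannose-binding lectins, Masp1 and Masp2 their proteases, and C2 and C4b the parts of the C3 convertase that these proteases cut. All 8 fell at the first step, 7 of 8 at the second and 7 of 8 between full and BEC. Of all genes, 25.7%, 19.8% and 10.6% were lower at these steps. C4b, the most abundant of them per kilobase of transcript in early (594 CPM per kb), had 3963, 2751 and 2875 CPM in the early libraries, 1634, 1223 and 1313 in intermediate, 829, 639 and 676 in full and 329.9, 353 and 348 in BEC. No 2 neighbouring groups overlapped, and early replicate 1 stood highest. Its log2 fold changes were -1.20, -0.96 and -1.06 at the 3 steps (SE 0.16, 0.16 and 0.16, edgeR adjusted p 2.38e-05, 0.000284 and 0.000274). C4b has a close copy, C4a, which reached at most 428 counts in a library, so reads shared between them could be misplaced.

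C1s1 fell late, and its largest step on the log2 scale lay between full and BEC. It had 777, 784 and 753 CPM in early, 477, 459 and 534 in intermediate, 153, 138 and 195 in full and 14.3, 13.6 and 17.9 in BEC. Intermediate kept 63.5% of the early mean, full 20.9% and BEC 1.98%. The fall at the first step (log2 fold change -0.66 with SE 0.13, at edgeR adjusted p 0.000872) was absent when scaled by total counts (0.00938, edgeR adjusted p of 0.957), and that from full to BEC was -3.40 (SE 0.15, edgeR adjusted p 1.06e-08). C1ra, its partner in C1, took another course. Its values were 517, 466 and 473 CPM in early, 134, 127 and 139 in intermediate, 54.3, 51.6 and 56.3 in full and 29.9, 31.3 and 34.5 in BEC, with the largest step first (log2 fold change -1.86 with SE 0.09, at edgeR adjusted p 2.2e-09). In BEC C1ra was thus at 6.57% of early.

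The lectin pathway split between its proteases. Mbl1, Mbl2 and Masp2 were lost early, with 20.4%, 8.34% and 22.1% of the early mean in intermediate. Mbl2 averaged 93.5 ± 8.88 CPM in early, 7.79 ± 2.29 in intermediate and 1.2 ± 0.457 in full (mean ± SD, n = 3 libraries, as for all such values). Masp1 instead kept most of its early level through full, with a small fall at the first step. Its values were 237, 213 and 226 CPM in early, 210.3, 138 and 138 in intermediate, 215, 186 and 176 in full and 34.1, 33.3 and 25.4 in BEC. Full libraries overlapped both early and intermediate ones, and BEC libraries lay far below all others. Between BEC and full the log2 fold change was -2.64 (SE 0.17, edgeR adjusted p 2.14e-07), while full and early differed by -0.23 (edgeR adjusted p 0.214, not called, but 0.0446 in a fit of these 6 libraries alone). With total counts only Masp1 was higher in full than in early (0.64, edgeR adjusted p 0.00223) and its first step turned to 0.19. The small fall at the first step (log2 fold change -0.47 with SE 0.16, at edgeR adjusted p 0.0219) was lost without early replicate 1 (-0.43, edgeR adjusted p 0.0588), intermediate replicate 2 (-0.37, edgeR adjusted p 0.0976) or intermediate replicate 3 (-0.37, edgeR adjusted p 0.0916). Without intermediate replicate 1, Masp1 was called higher in full than in intermediate (0.48, edgeR adjusted p 0.0121). Masp2 shares exon sequence with Tardbp on the other strand in the GENCODE M21 annotation, and strand use in counting is not given in the sources used here.

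C2, which supplies the protease of the classical and lectin C3 convertase, was reduced in small steps. It had 96.8, 99.2 and 96.9 CPM in early, 79.5, 63 and 79.6 in intermediate, 42.8, 36.1 and 44.7 in full and 27.6, 26.7 and 26.1 in BEC. Every group lay below the one before it without overlap. BEC kept 27.5% of the early mean (log2 fold change -1.86 with SE 0.11, at edgeR adjusted p 2.14e-09). At the first step its change of -0.40 (edgeR adjusted p 0.00517) turned to 0.27 when scaled by total counts (edgeR adjusted p 0.0323). C2 overlaps exons of Zbtb12 on the other strand.

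C3, the protein on which all complement pathways meet, was the most abundant member per kilobase of transcript in every group. It had 29910.4, 24291 and 25902 CPM in early, 11672, 11640.3 and 13424 in intermediate, 8392, 8448 and 8181 in full and 8375, 8587 and 7816 in BEC. Early libraries were highest and the full and BEC libraries overlapped. C3 fell at the first step (log2 fold change -1.12 with SE 0.13, at edgeR adjusted p 5.47e-06) and at the second (log2 fold change -0.55 with SE 0.13, at edgeR adjusted p 0.00308), and BEC against full gave -0.01 (SE 0.13, edgeR adjusted p 0.963). BEC thus held 30.9% of the early level, against a median of 1.53% over the 41 tested members. Scaled by total counts it held 56.5% (-0.82, edgeR adjusted p 1.74e-05), a fall of less than 2-fold. C3 made up 62.4% of the summed CPM of the complement members in early, 66.9% in intermediate, 77.5% in full and 89.8% in BEC.

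Factor B (Cfb) gives the protease of the alternative pathway's convertase. It had 47.5, 33.6 and 43.2 CPM in early, 29.8, 29.1 and 29.7 in intermediate, 23.2, 21.8 and 21.3 in full and 14.2, 17 and 18.1 in BEC. Early libraries spread widely, and neighbouring groups did not overlap. From early to BEC it fell to 39.7% (log2 fold change -1.33 with SE 0.13, at edgeR adjusted p 4.98e-07). Its single steps were small. The second (-0.42, edgeR adjusted p 0.0175) missed the threshold when full replicate 2 (edgeR adjusted p 0.0578) or full replicate 3 (0.0608) was left out. Scaled by total counts it was -0.22 (edgeR adjusted p 0.189), and the first step was then 0.17. Cfd, the protease that activates factor B, was at 0 counts in 11 libraries and at 2 counts in early replicate 3. At these depths a count of 0 allows up to 3 counts, so Cfd was at most near 0.273 CPM in the libraries at 0, a limit that covers counting error only. Of 4 adipocyte markers, Adipoq, Plin1 and Lep did not pass the filter, and Cidec was at 7.34 ± 1.23 CPM in early and lower in BEC (-4.67, edgeR adjusted p 2.09e-07).

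The terminal components form the membrane attack complex, and 5 of 6 were lost early. Hc encodes C5, whose cleavage starts the assembly; C6, C8 (from C8a, C8b and C8g) and C9 then join. All 6 fell at the first step and all 6 at the second, where 25.7% and 19.8% of all genes were lower. The class lost early held 4.00% of all genes. Hc had 1508, 1392 and 1545 CPM in early, 254, 241 and 323 in intermediate, 29.3, 27.3 and 49.6 in full and 12.5, 13.5 and 27.1 in BEC. Between early and intermediate it fell by 2.44 on the log2 scale (SE 0.28, edgeR adjusted p 5.57e-06), and by a further 2.95 to full. C8a had 789, 726 and 954 CPM in early, 160.4, 139 and 197 in intermediate, 16.5, 9.63 and 20.1 in full and 4.96, 7.55 and 14.2 in BEC. Its full and BEC libraries overlapped. The values of C9, the pore-forming subunit, were 349, 335 and 374 CPM in early, 78.6, 72.8 and 114 in intermediate, 12.9, 9.32 and 17.8 in full and 5.4, 6.2 and 6.12 in BEC, and C9 sat on the limit between early and late loss.

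The complex also holds the 3 chains of C8. In intermediate C8a stood at 20.1% of early, C8b at 12.3% and C8g at 10.8%; in BEC they stood at 1.08%, 1.23% and 3.54%. Differences between the chains were not tested. C8g, a lipocalin unrelated in fold to the other chains, fell by 3.21 at the first step (SE 0.13, edgeR adjusted p 9.2e-10) and by 1.58 at the second. C6 averaged 339 ± 41.4 CPM in early, 45.5 ± 8.43 in intermediate and 3.49 ± 1.36 in full, 1.03% of its early level. Between full and BEC, C6, C8a, C8b and C8g were not called (0.33, -0.79, -0.07 and -0.03, edgeR adjusted p 0.573, 0.11, 0.941 and 0.92). C8a passed in the fit that pairs libraries by replicate number (-0.81, edgeR adjusted p 0.0119), without full replicate 2 (-1.04, edgeR adjusted p 0.0395), without BEC replicate 3 (-1.30, edgeR adjusted p 0.00719) and without the filter on low counts (-0.82, edgeR adjusted p 0.000223).

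Among the complement regulators, vitronectin (Vtn), which blocks pore insertion and also binds matrix, separated full from BEC most. It had 4862, 3829.9 and 4239.8 CPM in early, 1972, 1679 and 1982 in intermediate, 662, 516 and 675 in full and 34.3, 54.8 and 77.8 in BEC. No group overlapped another, and the widest gap on a log scale was that between full and BEC. The log2 fold change was -1.20 at the first step, -1.60 at the second and -3.47 from full to BEC (SE 0.25, edgeR adjusted p 4.41e-07). Full cells kept 14.3% of the early level, the second highest level of all members per kilobase in full (354 CPM per kb), and BEC 1.29%.

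Factor I (Cfi), the protease that inactivates C3b and C4b, and its cofactor C4bp fell at every step. Cfi had 1352, 1173 and 1196 CPM in early, 574, 494 and 598 in intermediate, 224, 160.1 and 224 in full and 164, 138 and 149 in BEC, where full replicate 2 overlapped the BEC libraries. C4bp had 1021 ± 97.7 CPM in early and 247 ± 12.9 in intermediate, and its level in BEC was 4.71% of early. Serping1 encodes the C1 inhibitor, which stops C1r, C1s, the lectin proteases and plasma kallikrein. It had 941, 817 and 759 CPM in early, 430.0, 354 and 406 in intermediate, 269, 224 and 238 in full and 183, 157 and 151 in BEC. These groups did not overlap, and BEC kept 19.5% (log2 fold change -2.36 with SE 0.12, at edgeR adjusted p 7.99e-10). Per kilobase of transcript Serping1 ranked 13 among the members in early and 2 in BEC (92.5 CPM per kb).

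**Figure D3:**
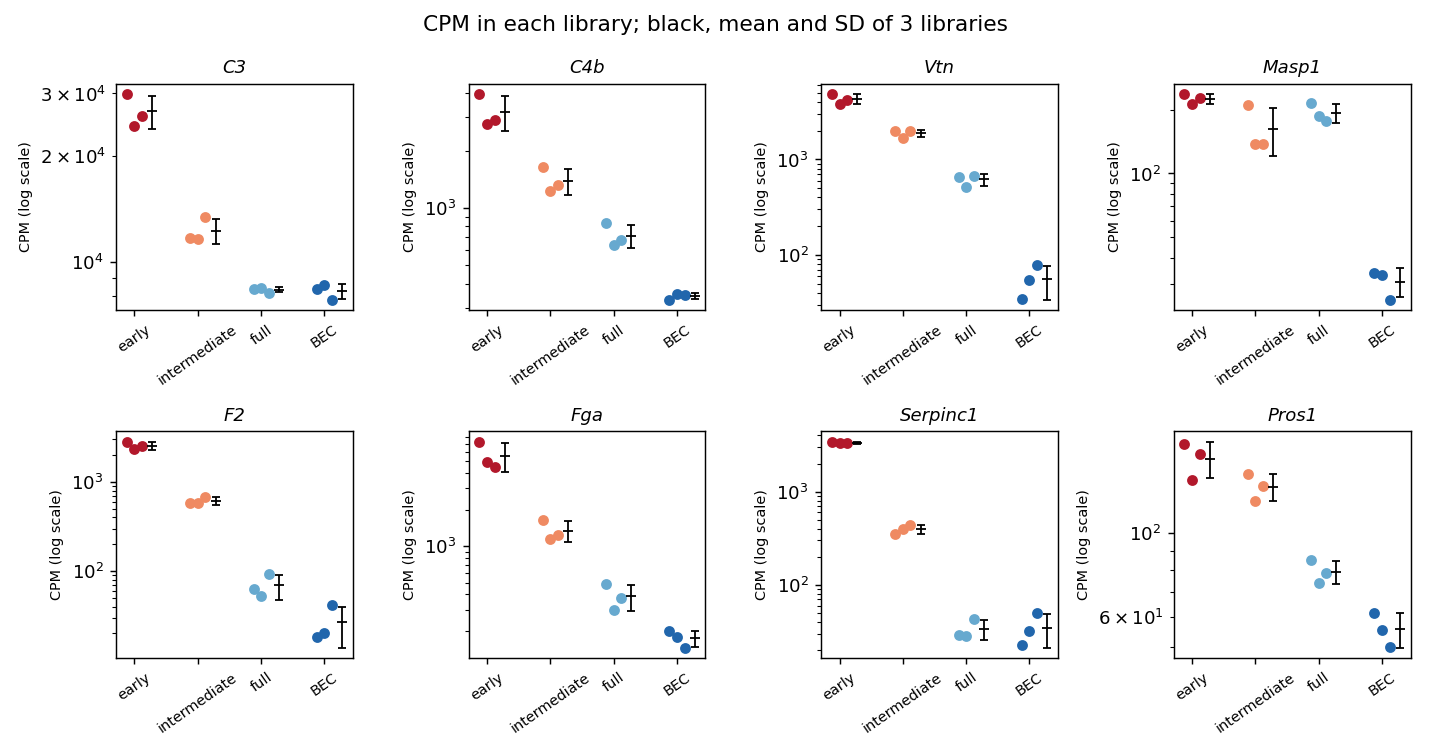
CPM (log axis) of 8 members in each of the 12 libraries, coloured by group, with the mean and SD of 3 libraries in black. C3 levels off after full, Masp1 and Vtn drop between full and BEC, and F2, Fga and Serpinc1 fall steeply at both earlier steps and Pros1 falls little at the first.

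The vitamin K-dependent proteins ended at very different levels. They are prothrombin (F2), factors VII, IX and X (F7, F9, F10), and the anticoagulants protein C (Proc) and protein S (Pros1). Of the 6, 5 fell at the first step, 6 at the second and 5 between full and BEC, against 25.7%, 19.8% and 10.6% of all genes. F2 had 2826, 2310.4 and 2509 CPM in early, 582, 574 and 678 in intermediate, 62.5, 52.1 and 93.3 in full and 18.4, 20.5 and 41.7 in BEC. Its steps were -2.06, -3.14 and -1.37 (SE 0.27, 0.29 and 0.27, edgeR adjusted p 2.41e-05, 1.69e-06 and 0.00243). F10 had 531, 437 and 509.6 CPM in early, 83.6, 98.4 and 121 in intermediate, 10.1, 7.36 and 11.1 in full and 3.52, 3.59 and 8.13 in BEC. Its full and BEC libraries overlapped. F7 and F9 were lost late, with 28.5% and 37.3% of early in intermediate and 2.99% and 8.2% in full. In BEC the procoagulant factors were at 0.924% (F7), 1.03% (F10), 1.05% (F2) and 1.6% (F9) of early.

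Proc and Pros1 are the anticoagulants among these 6. Proc had 753, 672 and 691 CPM in early, 289, 283 and 322 in intermediate, 118, 107 and 127 in full and 87.2, 98.4 and 104 in BEC. It fell at the first step (log2 fold change -1.24 with SE 0.10, at edgeR adjusted p 2.85e-07) and the second (-1.35), and full and BEC differed by -0.28 (edgeR adjusted p 0.0716; 0.0348 in the fit paired by replicate number, and no overlap between these groups). Pros1 had 173, 139 and 162 CPM in early, 144, 122 and 133 in intermediate, 84.8, 73.8 and 78.3 in full and 61.5, 55.5 and 49.8 in BEC. Early and intermediate overlapped, full and BEC did not overlap any other group. BEC held 13.7% of early for Proc and 35.2% for Pros1 (log2 fold change -1.51 with SE 0.11, at edgeR adjusted p 2.44e-08). The difference of Pros1 at the first step (-0.25, edgeR adjusted p 0.0676) sat at the threshold. It passed in the fit paired by replicate number (-0.25, edgeR adjusted p 0.0181) and without early replicate 2 (-0.34, edgeR adjusted p 0.0207), and turned to a rise when scaled by total counts (0.42, edgeR adjusted p 0.00325). The difference between procoagulant and anticoagulant members was not tested, and Proz, a vitamin K-dependent anticoagulant cofactor outside the 42, was at 1.05% of early in BEC.

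The contact system consists of factor XII (F12), which activates prekallikrein (Klkb1), the kininogen Kng1 that carries it, and factor XI (F11). All 4 fell at the first and the second step, where 25.7% and 19.8% of all genes were lower. F12 fell later than its partners, with 53.2% of early in intermediate against 24.2% for Klkb1, 15.5% for Kng1 and 15.4% for F11. F12 had 916, 733 and 829 CPM in early, 416, 405 and 498 in intermediate, 42.3, 35.1 and 57.9 in full and 7.03, 6.1 and 13.1 in BEC. The second step was the larger (-3.28, SE 0.25, edgeR adjusted p 3.91e-07), and the first (-0.91, edgeR adjusted p 0.00404) was not called when scaled by total counts (-0.25, edgeR adjusted p 0.336). Kng1 had 3033, 2693 and 2529 CPM in early, 449, 356 and 473 in intermediate, 33.9, 23.5 and 40.9 in full and 24.7, 22.2 and 36 in BEC, with full and BEC overlapping. Klkb1 had 186, 195 and 209 CPM in early, 42.6, 45.7 and 54.7 in intermediate, 4, 4.95 and 7.92 in full and 1.3, 1.72 and 3.84 in BEC. Kng1 has a close relative, Kng2, which was at 541 ± 37.4, 376 ± 21.7, 103 ± 24.6 and 12.4 ± 3.02 CPM in the 4 groups in order, so the split of reads between them is uncertain.

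The cofactors of coagulation behaved unlike each other. F5 encodes factor V, the cofactor of factor X, and F8 factor VIII, the cofactor of factor IX. F5 had 745, 877 and 929 CPM in early, 172, 227 and 302 in intermediate, 35.5, 38 and 72.6 in full and 8.09, 11.6 and 19.2 in BEC, and fell at each step (-1.86, -2.26 and -1.91, edgeR adjusted p 0.000176, 7.23e-05 and 0.000716). F8 had 7.28, 9.46 and 6.31 CPM in early, 3.96, 4.93 and 7.3 in intermediate, 4.3, 6.96 and 5.51 in full and 7.76, 6.43 and 5.07 in BEC. All its groups overlapped, and no comparison was called (BEC against early -0.26, SE 0.27, edgeR adjusted p 0.401). F8 was the lowest tested member per kilobase in early (0.785 CPM per kb). Without intermediate replicate 3 it was called lower in intermediate than in early (-0.78, edgeR adjusted p 0.0338), and when scaled by total counts it was higher in BEC than in early (0.61, edgeR adjusted p 0.0465). Endothelial cells are its main source in liver. The summed level of 7 endothelial markers was 13.8 to 22.3 CPM in early libraries, 6.16 to 14.9 in intermediate, 2.08 to 4.64 in full and 1.73 to 6.63 in BEC, and 6 of the 7 passed the filter. Stab2 made up most of the early sum (11.9 ± 0.949 CPM, against 0.938 ± 0.83 in BEC). It was lower in BEC than in early (-3.65, edgeR adjusted p 1.37e-05), and 5 of the 6 were not called. In full 3 of the 6 were lower than in early (Stab2, Pecam1 and Clec4g, with a median of -1.81 over the 6) and 2 lower than in intermediate, while F8 was not called in either comparison (-0.46 and 0.05, edgeR adjusted p 0.141 and 0.91). The part of endothelial RNA in the F8 values was not tested.

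Fibrinogen is built from the Aα, Bβ and γ chains (Fga, Fgb and Fgg), which lie side by side in the genome, and F13b carries the transglutaminase that crosslinks fibrin. Fga had 7282, 4939 and 4530.0 CPM in early, 1639, 1140.2 and 1239 in intermediate, 483, 299.9 and 375 in full and 198, 177 and 146 in BEC. Fgb had 7023, 5294 and 4563 CPM in early, 2275, 1667 and 1784 in intermediate, 462, 271 and 357 in full and 112, 111 and 112 in BEC. Fgg had 4162, 2947 and 2712 CPM in early, 891, 626 and 645 in intermediate, 241, 163 and 213 in full and 112, 83.7 and 81.8 in BEC. In all 3 chains replicate 1 was the highest library of each group, and no group overlapped another. At the first step the chains fell by 2.06 (Fga), 1.56 (Fgb) and 2.18 (Fgg) on the log2 scale (edgeR adjusted p 3.56e-06, 1.72e-05 and 1.23e-06), and at the second by 1.80, 2.39 and 1.81. From full to BEC the changes were -1.15, -1.71 and -1.15 (edgeR adjusted p 0.00155, 3.55e-05 and 0.00104). Per kilobase of transcript, the order Fga, Fgg, Fgb of early (2158, 1880.3 and 1477 CPM per kb) was the same in full and in BEC (67.1, 53.2 and 29.3), while in intermediate Fgb (501) stood above Fgg (414). F13b averaged 219 ± 10.1 CPM in early, 64.6 ± 11.7 in intermediate, 6.83 ± 3.87 in full and 2.88 ± 1.13 in BEC.

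Of the serpins, antithrombin (Serpinc1) had one of the steepest early losses. It inhibits thrombin and factor X, heparin cofactor II (Serpind1) inhibits thrombin, and α2-antiplasmin (Serpinf2) inhibits plasmin. Serpinc1 had 3431, 3281 and 3288 CPM in early, 348, 395 and 443 in intermediate, 29.2, 28.5 and 43.2 in full and 22.8, 32.1 and 49.5 in BEC. Full and BEC overlapped, at 1.01% and 1.04% of early (log2 fold change 0.05 with SE 0.23, at edgeR adjusted p 0.925). Serpind1 had 749.5, 732 and 821 CPM in early, 227, 202 and 244 in intermediate, 89, 70.3 and 81.7 in full and 7.51, 8.81 and 15.8 in BEC. It was therefore 10.5% of early in full and 1.39% in BEC (log2 fold change -2.91 with SE 0.22, at edgeR adjusted p 6.41e-07). Serpinf2 had 1853, 1492 and 1468 CPM in early, 558, 497 and 564 in intermediate, 55.2, 40.4 and 62.8 in full and 11.2, 11.1 and 23.3 in BEC, a fall of 1.57 at the first step and 3.35 at the second. Serpinc1 overlaps exons of Zbtb37 on the other strand.

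Plasminogen (Plg) is the precursor of the fibrin-dissolving protease plasmin, and Cpb2 encodes the carboxypeptidase that protects fibrin from it. Plg had 2584, 2149 and 2226 CPM in early, 514, 515 and 668 in intermediate, 37.8, 35.8 and 68.2 in full and 20.5, 22.2 and 37.1 in BEC. Cpb2 had 602, 507 and 487 CPM in early, 148, 136 and 147 in intermediate, 37.5, 32.3 and 51.3 in full and 7.85, 5.4 and 8.18 in BEC. Both fell at the first step to about the same share of early (24.4% and 27%), and differed in full (2.04% and 7.59%). Cpb2 then fell by 2.50 from full to BEC (SE 0.18, edgeR adjusted p 6.1e-07).

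Full cells, which express both surface markers of biliary cells, still differed from the EGFP- biliary cells in 31 of the 41 tested members, all lower in BEC. The 11 of these that also passed a test against a minimum 2-fold change were C1s1, Masp1, Vtn, F9, F11, F12, F5, Fgb, Serpind1, Serpinf2 and Cpb2, where 2.45% of all genes passed this test as lower. The largest differences were in Vtn (-3.47), C1s1 (-3.40), Serpind1 (-2.91), Masp1 (-2.64), Cpb2 (-2.50), F12 (-2.37) and F9 (-2.36). F11 fell from 3.84 ± 0.737 CPM in full to 1.04 ± 0.152 in BEC, and F9 from 20.4 ± 7.14 to 3.98 ± 1.06. The 10 members that were not called are Mbl2, C3, C6, C8a, C8b, C8g, Proc, Kng1, F8 and Serpinc1. Of these, C3, Proc and F8 were above 10% of early in BEC and the other 7 below 4%. C8a and Proc were called lower in the fit paired by replicate number (edgeR adjusted p 0.0119 and 0.0348). In 4 of the 31 called members (Cfi, F10, F13b and Plg) the full and BEC libraries overlapped. Of 8 hepatocyte markers, 4 were lower in BEC than in full and 0 higher, and the part of this in the members' differences was not tested.

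Of the 31 calls, 7 depended on single libraries. Without full replicate 3, calls were lost for Hc (-0.67), Cfi (-0.35), Cfb (-0.45), F10 (-0.78), Klkb1 (-0.96), F13b (-0.71) and Plg (-0.47). Without full replicate 1, they were lost for Cfb (-0.39), Cfi (-0.35) and F10 (-0.86), and without full replicate 2 for Cfb (-0.44). Without BEC replicate 1, they were lost for Cfb (-0.33), Hc (-0.80), F10 (-0.70), F13b (-1.01) and Plg (-0.68). Without BEC replicate 2, Cfb (-0.45), Hc (-0.84), Cfi (-0.37), F10 (-0.71), Klkb1 (-1.12), F13b (-1.18) and Plg (-0.72) lost theirs, and without BEC replicate 3, Cfi (-0.43) did. The highest edgeR adjusted p among these fits was 0.202.

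**Figure D4:**
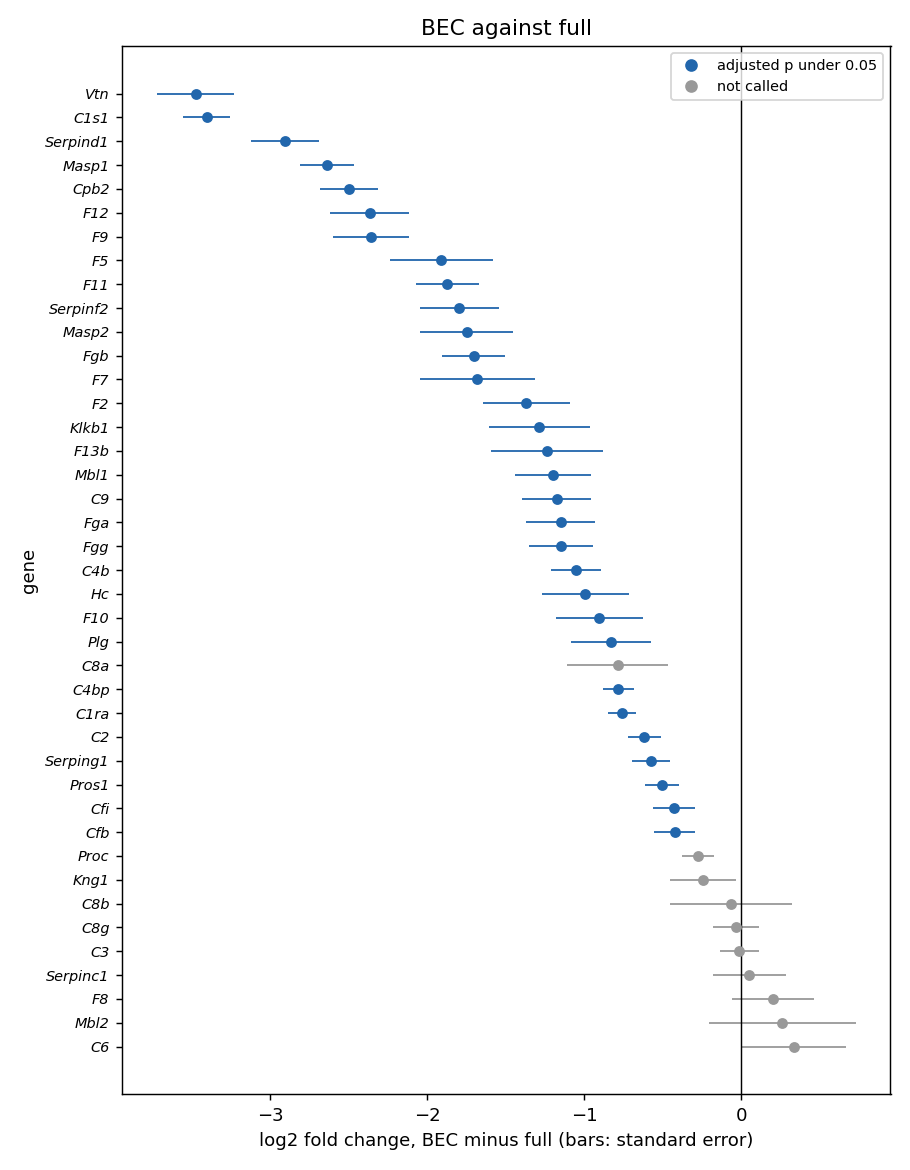
Log2 fold change of BEC minus full for the 41 tested members (x axis, bars show the standard error), blue where called and grey where not. Vtn and C1s1 are lowest, and 0 members were called higher in BEC.

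In BEC, 26 of the 41 tested members were under 2% of their early level (10 when scaled by total counts), and the lowest were F7 (0.924%) and Serpinf2 (0.948%). The 8 hepatocyte markers measured beside them (Alb, Ttr, Apoa1, Apoa2, Apob, Tat, Tdo2 and Cps1) were at 0.932% to 4.94% of early in BEC, with a median of 1.39%, and 5 of 8 were under 2%. In full the markers had a median of 2.53% (1.04% to 10.5%) and the members 5.73% (1.01% to 85.4%). In intermediate these medians were 17.8% (9.43% to 33.3%) and 27.5% (8.34% to 84.3%). The summed hepatocyte markers ran from 102050 to 110092 CPM in early and from 2214 to 2907 CPM in BEC. The part that hepatocyte RNA has in the low levels of BEC was not tested. Above 10% of early in BEC were 10 members: C3, Cfb, C2, C4b, Cfi, Serping1, Masp1, Proc, Pros1 and F8.

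Levels summed over members are given for both systems. Complement members together had 42776 ± 4419 CPM in early, 18303 ± 1348 in intermediate, 10764 ± 235 in full and 9193 ± 370.4 in BEC. Coagulation members had 32313 ± 4597, 8353 ± 772, 1658 ± 299.5 and 724 ± 41.1 CPM. In BEC this was 21.5% of early for complement and 2.24% for coagulation. Without C3 the complement sum in BEC was 934 ± 29.3 CPM, 5.81% of early. Scaled by total counts these shares were 39.2% for complement, 4.09% for coagulation and 10.6% for complement without C3. These sums are given without a test.

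Other genes of the same systems were followed as 4 lists with 64 genes, of which 49 passed the filter. From early to BEC, 28 fell and 13 rose (33.0% and 40.0% of all genes), with a median log2 fold change of -1.33 against 0.14 over all genes. At the first step 24 fell and 13 rose, or 49.0% and 26.5% of the 49 against 25.7% and 28.7% of all genes. At the second 22 fell and 8 rose, or 44.9% and 16.3% against 19.8% and 20.8%. Scaled by total counts, 20 instead of 13 rose at the first step.

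Among 14 tested complement components, 7 fell and 1 rose from early to BEC (6 and 4 when scaled by total counts), against 33.0% and 40.0% of all genes. Clusterin (Clu), which keeps the terminal complex out of membranes, rose at the first step from 8252 ± 965 to 25403 ± 3411.8 CPM (log2 fold change 1.62 with SE 0.17, at edgeR adjusted p 2.11e-06) and was at 23231 ± 3048 CPM in BEC. The C1q chains C1qa, C1qb and C1qc, made by macrophages, were between 0.563 and 2.41 CPM on average and were not called in any comparison, save that C1qa (2.53) and C1qc (2.65) were higher in BEC than in early when scaled by total counts. The summed level of 7 macrophage markers ran from 24.1 to 25.6 CPM in early libraries and from 133 to 153 in BEC, of which Csf1r alone was 127 ± 6.69 CPM in BEC. From early to BEC, of the 6 that passed the filter, Csf1r was higher (5.00, edgeR adjusted p 2.47e-12), Cd68 was lower (-2.01, edgeR adjusted p 1.14e-05) and 4 were not called. Neutrophil markers were at most 0.637 CPM in sum in any library, and 5 platelet markers had 3.48 to 4.46 CPM in sum in early libraries and 6.26 to 7.59 in BEC. Among these Pf4 was higher in BEC than in early, at 4.21 ± 0.09 CPM (at least 16.8-fold, edgeR adjusted p 3.75e-06), Itga2b and Gp1ba were not called, and Ppbp and Gp9 did not pass the filter.

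Of 7 tested receptors and membrane regulators, 4 fell and 2 rose from early to BEC (3 and 3 when scaled by total counts, where Cr1l turned from -0.31 to 0.56), against 33.0% and 40.0% of all genes. The decay-accelerating protein Cd55 rose from 0.638 ± 0.376 to 6.57 ± 1.13 CPM (log2 fold change 3.35 with SE 0.35, at edgeR adjusted p 1.13e-06) and Cd46, a cofactor for factor I, from 1.8 ± 0.537 to 5.91 ± 3.48 CPM (log2 fold change 1.72 with SE 0.42, at edgeR adjusted p 0.00206). BEC replicate 1 carried much of the Cd46 value, and without it the BEC mean was 3.84 CPM and the log2 fold change 1.13 (edgeR adjusted p 0.0109). Cd59a, which blocks the membrane attack complex, fell from 65.9 ± 6.49 to 26.2 ± 3.84 CPM (log2 fold change -1.33 with SE 0.11, at edgeR adjusted p 1.14e-07). Its copy Cd59b (-2.003) and Cr2 (-1.96) fell at mean levels under 3 CPM.

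Of 20 tested coagulation and fibrinolysis genes outside the 42, 10 rose and 9 fell from early to BEC (11 and 9 when scaled by total counts). These are 50% and 45% of the list, against 40.0% and 33.0% of all genes. Urokinase (Plau) was at or under 3 counts in each early library and was at least 159-fold higher in BEC, at 40 ± 7.95 CPM. Tissue plasminogen activator (Plat) rose from 3.09 ± 0.713 to 70.2 ± 20.8 CPM (log2 fold change 4.51 with SE 0.36, at edgeR adjusted p 5.94e-08), and the protease inhibitor Serpine2 from 2.95 ± 1.69 to 56.9 ± 11.6 CPM (log2 fold change 4.29 with SE 0.40, at edgeR adjusted p 2.76e-07). The 3 largest falls were in Fgl1, Proz, a vitamin K-dependent protein, and Hrg, a histidine-rich plasma protein: -6.69, -6.56 and -6.49 (edgeR adjusted p 2.68e-08, 3.42e-10 and 6.19e-12). Some genes were singled out after their values were seen. Tissue factor (F3), the trigger of coagulation, rose from 8.5 ± 2.02 to 48 ± 18.8 CPM at the first step (log2 fold change 2.50 with SE 0.34, at edgeR adjusted p 3.03e-05). The thrombin receptor F2r stood at 107 ± 7.33, 146 ± 5.08 and 88.6 ± 13.3 CPM in early, intermediate and full and at 4.85 ± 0.402 CPM in BEC (BEC against full -4.19, SE 0.13, edgeR adjusted p 5.92e-10).

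The genes that mature and export vitamin K-dependent and other secreted factors fell too. All 8 were lower in intermediate than in early and all 8 in BEC, where 25.7% and 33.0% of all genes were. When scaled by total counts it was 5 and 7, and Vkorc1l1 was at 0.03 in BEC and Ggcx at 0.00628 at the first step. Ggcx, Lman1 and Mcfd2 were chosen after their values were seen. Ggcx, the carboxylase that uses vitamin K, went from 117 ± 16.9 to 43.9 ± 2.6 CPM (log2 fold change -1.41 with SE 0.13, at edgeR adjusted p 3.45e-07). Lman1 and Mcfd2, the cargo receptor that carries factors V and VIII, fell by 1.64 and 1.69 on the log2 scale from early to BEC (edgeR adjusted p 2.26e-08 and 6.13e-10). The largest falls of this list were in Nqo1 (-5.57), a quinone reductase, the convertase Pcsk5 (-4.08) and Vkorc1 (-2.67), which recycles vitamin K. Between full and BEC 2 of the 8 were called, both lower, where 21.3% of all genes were called in either direction and 10.6% as lower.

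**Figure D5:**
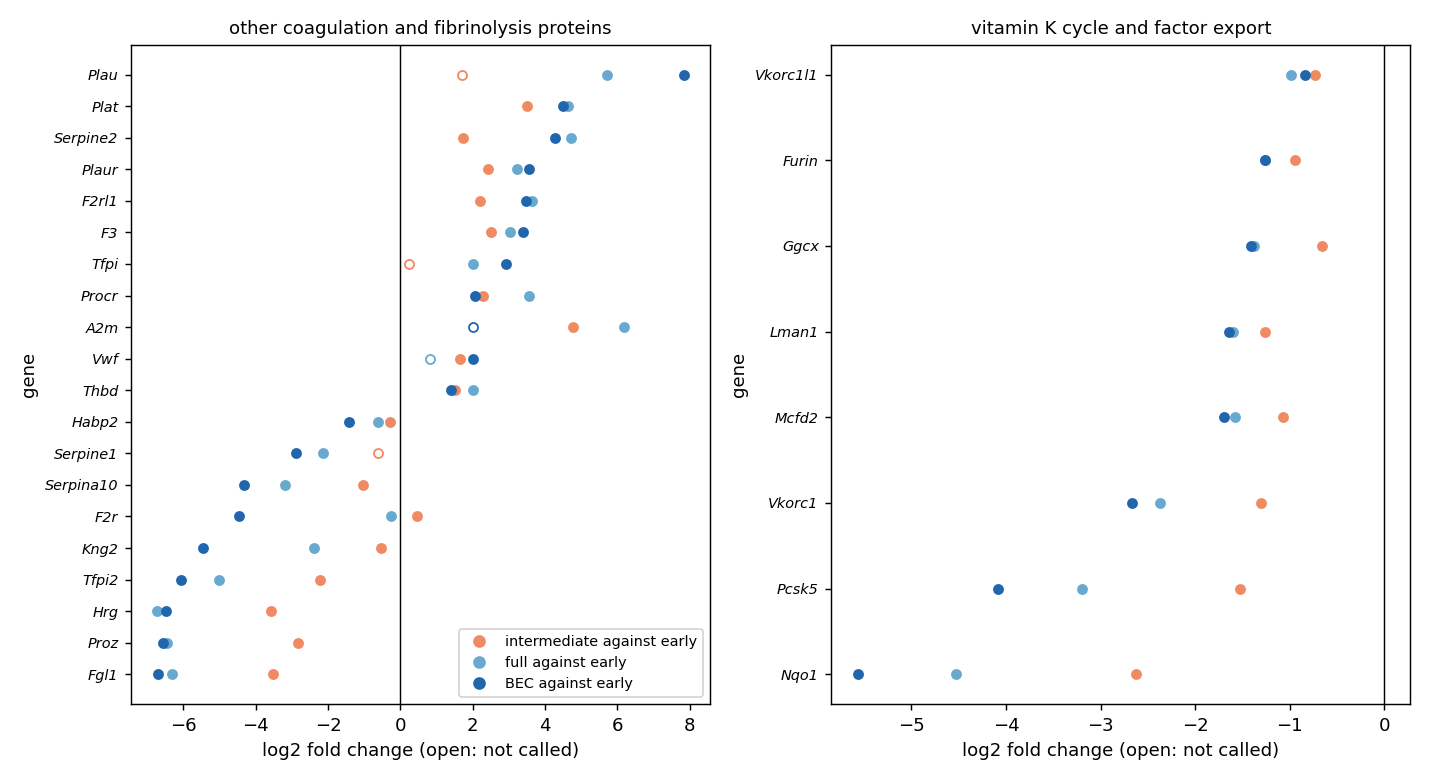
Log2 fold change against early (x axis) in intermediate, full and BEC for the tested coagulation and fibrinolysis genes outside the 42 (left) and for the vitamin K and export genes (right), filled where called and open where not. On the left, 11 genes are above 0 in BEC and 9 below, with F2r above 0 only in intermediate (and also in full, at 0.60, when scaled by total counts). On the right all 8 genes are below 0, save that Vkorc1l1 is not when BEC is scaled by total counts, nor Ggcx when intermediate is.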

How the data were processed

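Gene counts of 12 libraries were used as deposited, made per the submitters' processing notes with STAR 2.7.10b, featureCounts 2.0.1 and GRCm39. The annotation, the strand setting and how multi-mapping reads were counted are not given in the sources used here. A second, normalized table was not used. Groups and replicates came from sample titles. The 53599 genes had 0 rows without a gene name and 0 unmapped columns.

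Genes were kept by filterByExpr, and counts scaled by TMM, in R 4.3.3 with edgeR 4.0.16. A single model over the 12 libraries had a coefficient for every group. The 5 contrasts were tested by edgeR's quasi-likelihood method, adjusted by Benjamini-Hochberg over 16210 genes and called at 0.05. The SE is the log2 fold change over the root of the test statistic. A fold against a group with at most 3 counts in every library is a lower bound from 3 counts per library. Levels between genes were compared per kilobase of the longest protein-coding GENCODE M21 transcript, a GRCm38 annotation. Figures used Python 3.11.15 and matplotlib 3.10.9. The procedure was tested on simulated data.

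Alternatives were DESeq2 1.42.0, other scaling, other filters, a minimum 2-fold change, pairing by replicate number as a block, other loss limits, fits of 6 libraries, and fits that left out 1 library. Members, lists and classes were chosen with earlier results of these data known. All 42 members were named; values per library were given for up to 3 members per role with the highest mean CPM and for those kept or reduced, and were added for Masp1 after its values were seen. From the other lists, called genes with the largest change between BEC and early were named, up to 3 per direction. Some genes that this rule names are not reported here.

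Same-numbered libraries deviated together from their group means in the 3 successive steps. Across genes, r ran from 0.121 to 0.293, from 0.137 to 0.322 and from 0.170 to 0.257. Libraries with different numbers were not compared, so these values do not settle whether the numbers from the titles pair the libraries. The main model had no block for the number. In the comparisons of full and BEC with early at least 1 pair was under 0.1 (0.0960 and 0.0442). Replicates differed beyond counting error, with chi-square per degree of freedom from 5.36 to 58.6.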

Additional observations from a re-analysis of the deposited data

How the results depend on the processing

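Over 4100 recomputed fold changes of single members, 3989 kept direction and side of the threshold. With the sign kept, 72 lost a call and 15 gained one. Of the 72, 38 came from the test against a minimum 2-fold change. Another 24 changed sign, and some of these also lost or gained a call. Total counts only gave positive values at the first step for C1s1 (0.00938), Masp1 (0.193), C2 (0.265), Cfb (0.175), Pros1 (0.417) and F8 (0.160), from early to full for Masp1 (0.639) and F8 (0.412), and from early to BEC for F8 (0.611). The other sign changes were of uncalled values: for F8 in full against intermediate without intermediate replicate 1 (-0.131) or 2 (-0.0214) or full replicate 2 (-0.140), up to 0.318 without intermediate replicate 3; and, in BEC against full, for Serpinc1 without full replicate 1 (-0.0442), full replicate 2 (-0.0585) or BEC replicate 3 (-0.294; highest 0.278), Mbl2 without full replicate 2 (-0.00347), BEC replicate 2 (-0.0497) or BEC replicate 3 (-0.0316; highest 0.715), C8b without full replicate 3 (0.428) or BEC replicate 1 (0.289; lowest -0.489), C8g without the same libraries (0.0554 and 0.0459; lowest -0.154), and C3 (0.0230; lowest -0.0448) and C6 (-0.204; highest 0.690) without BEC replicate 3. The cause was not tested.

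With total counts only, 2 members were higher at the first step, 1 at the second, 1 from early to full and 1 from early to BEC, against 0; the other lists had 20 and 19 higher genes in the first step and from early to full, against 13 and 12. The share of calls that were higher moved from 52.8% to 85.6% at the first step, from 51.2% to 72.6% at the second, from 54.9% to 81.8% from early to full and from 54.8% to 80.3% from early to BEC; the median of all genes moved to 0.72, 0.21, 1.005 and 1.004. Members lost early numbered 7, those lost in BEC only 4 and those kept 5. Summed CPM was then 28216, 12947 and 11071 for complement and 21300.2, 1991 and 871 for coagulation in early, full and BEC. A loss limit of -1 gave 34 members lost early, 3 late and 0 reduced, and one of -3 gave 4, 25, 4 in BEC only and 7 reduced, by construction. A minimum 2-fold change left 11 members lower in BEC than in full, and in the other lists 13 lower and 8 higher, 12 and 5, and 4 and 1 genes at the 3 steps.

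Leaving out 1 library gave 38 to 40 members lower at the first step, 38 to 39 at the second, 24 to 31 from full to BEC, 39 from early to full and 40 from early to BEC. Members called higher were 0 in these fits, save 1 (Masp1) at the second step, where the range was 0 to 1. Members lost early ranged from 14 to 20, late from 14 to 19 and in BEC only from 2 to 3. The other lists had 1 to 4 genes higher in BEC than in full, with fewer called without full replicate 1, 2 or 3. With the replicate block 3 calls were gained, Pros1 at the first step (-0.246, edgeR adjusted p 0.0181) and C8a (-0.807, edgeR adjusted p 0.0119) and Proc (-0.277, edgeR adjusted p 0.0348) from full to BEC; the block changed no other call of a member. DESeq2 (-0.290), median-of-ratios factors (-0.302) and a mean of at least 50 counts (-0.260) also called Pros1 at the first step. Fits of 6 libraries called Proc from full to BEC (-0.284) and lost F10 from full to BEC (-0.91, edgeR adjusted p 0.0550). Depth limits Cfd and the members near 1 CPM in BEC.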
